A study of Caenorhabditis elegans with 2 samples.

Results

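The regions described here lie beside nuclear transfer RNA (tRNA) genes of the nematode Caenorhabditis elegans. They come from region lists of a ChIP-seq experiment on the homeodomain protein CEH-9. A region was a member when its summit, the point of strongest signal, lay within 500 bp of the body of a nuclear tRNA gene in the Ensembl annotation of build WBcel235, which is ce11. The pooled list held 113 members among 10489 regions, or 1.08%. The replicate 1 list held 243 among 29970 nuclear regions (0.811%), and the replicate 3 list held 263 among 30000 (0.877%). The rule for members used the position of the summit and no signal values, but it was set with earlier results of these data known.

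Chromatin came from whole L3 larvae of strain OP202, with no separation by sex, and was sheared by sonication. The strain's genotype is unc-119(ed3) III with the transgene wgIs202, and it stably expresses CEH-9 with a GFP-FLAG tag at its C-terminus. There were 2 samples in 1 group, numbered 1 and 3 as biological replicates, with 1 technical replicate apiece. The cells of the larva that carry the tagged protein, and how its level compares with that of the untagged protein, are not stated by any source used here. One label field describes both libraries as input, while the antibody and source fields name ceh-9. They are treated here as CEH-9 ChIP, and the labels do not settle which field is right. Both replicate lists include many weak regions. In the replicate 1 list 10.1% of all nuclear regions had a q-value under 0.05, against 0.08% in the replicate 3 list and 0.267% in the pooled list.

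tRNA genes are transcribed by RNA polymerase III from a promoter that lies inside the gene. This promoter consists of an A box and a B box, which the factor TFIIIC binds, and TFIIIC brings TFIIIB to the DNA upstream of the start. A run of T bases just downstream of the gene ends transcription. CEH-9 is a homeodomain protein, a class of factors that usually bind short sites at genes read by RNA polymerase II.

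The annotation holds 612 nuclear tRNA genes, from 64 to 122 bp long with a median of 72 bp, in 200 distinct sequences. As many as 469 of them have at least 1 identical copy elsewhere in the genome. Chromosome X carries 276 of the genes (45.1%), while it makes up 17.7% of the nuclear genome. All 612 genes matched RefSeq by identifier and position, and RefSeq names the amino acid for 607. How reads that match several identical genes were placed is not stated by any source used here.

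The 4 gene bodies shown next belong to members with high signal in at least one replicate. They are in the gene's own 5′ to 3′ direction, read from the RefSeq copy of WBcel235, and their capitals mark the B box word, GTTCGANNC or the form GTTCAANNC. R04A9.t1 (chrX:410391-410462, plus strand) encodes a glutamine tRNA and shares its body with 15 genes in all, counting itself. R04D3.t2 (chrX:13307034-13307106, plus strand) encodes a valine tRNA in 2 copies. C04A11.t1 (chrX:13665555-13665673, plus strand) encodes a leucine tRNA, and K06A4.t1 (chrV:9503562-9503633, plus strand) an alanine tRNA. The bodies of C04A11.t1 and K06A4.t1 each occur in 1 annotated tRNA gene.
R04A9.t1: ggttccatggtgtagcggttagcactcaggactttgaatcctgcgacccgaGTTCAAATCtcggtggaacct
R04D3.t2: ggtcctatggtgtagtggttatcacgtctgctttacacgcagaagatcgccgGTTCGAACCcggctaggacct
C04A11.t1: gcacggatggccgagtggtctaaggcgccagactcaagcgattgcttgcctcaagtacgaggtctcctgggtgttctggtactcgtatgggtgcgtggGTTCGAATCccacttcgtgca
K06A4.t1: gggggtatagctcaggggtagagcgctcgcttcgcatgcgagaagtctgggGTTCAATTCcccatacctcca

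Of the members strong in both replicates, the one with the highest pooled signal lay between 2 divergent genes on X, M02F4.t2 (glutamate, minus strand) and M02F4.t1 (glycine, plus strand). Their whole 116-bp spacer is shown on the plus strand (chrX:3036048-3036163). Capitals mark the 11 bases centred on the summit that the pooled list and the replicate 1 list share.
spacer of M02F4.t2 and M02F4.t1: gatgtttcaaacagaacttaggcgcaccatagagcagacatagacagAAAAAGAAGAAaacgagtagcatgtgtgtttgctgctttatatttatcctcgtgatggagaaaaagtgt

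The strongest member of the pooled list lay upstream of R04A9.t1, outside any tRNA gene body. Its summit and the 50 bases to either side are shown on the plus strand (chrX:410194-410294), again with the central 11 bases in capitals. They match the nuclear genome exactly at 1 place, as does the M02F4 spacer, while the body of R04A9.t1 matches it at 16.
summit of the region beside R04A9.t1: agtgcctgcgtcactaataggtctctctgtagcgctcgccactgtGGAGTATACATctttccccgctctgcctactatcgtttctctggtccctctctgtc

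Summits crowded at tRNA gene bodies in all 3 lists, and the crowding ended within 300 bp. The ground within 500 bp of a tRNA gene covered 572077 bp, or 0.571% of the nuclear genome. Inside gene bodies the pooled list had 21 summits, a density 4.38 times that of the whole nuclear genome. At 1 to 100 bp the list had 49 summits and a ratio of 3.94. Each band farther out leaves out its lower bound and includes its upper one. The ratio was 1.59 at 100 to 200 bp, 1.20 at 200 to 300 bp, 0.587 at 300 to 500 bp and 0.953 at 500 to 1000 bp. Taken over the gene body and the first 100 bp, the ratio was 4.06 in the pooled list, 2.27 in replicate 1 and 2.11 in replicate 3. The pooled list was called on the reads of both replicates, so it is not a measurement apart from them. No test was made over regions, and all of these ratios describe the lists.

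**Figure D1:**
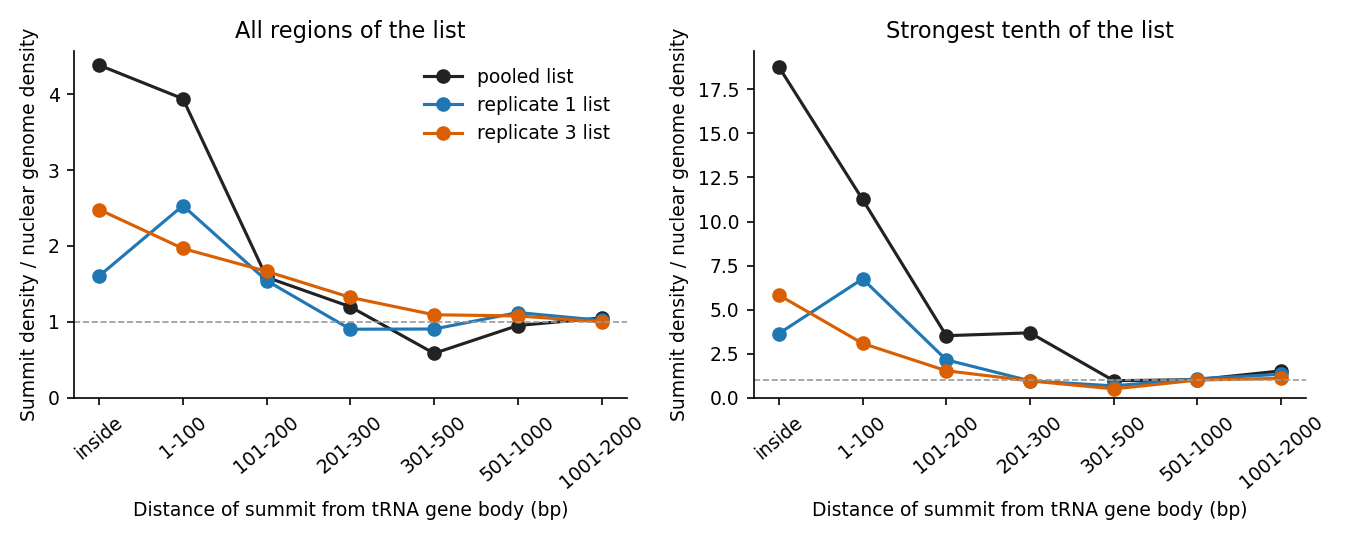
Summit density (y axis, as a ratio to the density over the whole nuclear genome, shown by the dashed line) against distance of the summit from the nearest tRNA gene body in bp (x axis), for each list. The pooled ratio of 4.38 inside the gene fell to 0.587 at 300 to 500 bp, and in the strongest 10% of each list (right panel, own scale) the ratios near the gene were higher in all 3 lists.

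The crowding was steeper among strong regions. Regions were ranked by the authors' signal value in column 7 of each list, and a rank is given as a percentile from 0 (weakest) to 100 (strongest) among the nuclear regions of that list. Within the gene body and the first 100 bp, the strongest 10% of the pooled list had 13.3 times its genome-wide summit density. The same ratio was 5.89 in replicate 1 and 3.85 in replicate 3. At genes without an identical copy the pooled ratio was 7.25, and 19.0% of the members nearest to such genes were in the strongest 10%. Both values rest on few regions. Of these 143 genes, 28 had a pooled region within 500 bp, and 5 had one in the strongest 10%. The strongest 10% was 1049 regions of the pooled list, but 2997 of replicate 1 and 3000 of replicate 3, so these cuts are unlike. The gene body and first 100 bp make up 0.164% of the nuclear genome. They held 23 of the 1000 strongest pooled regions, 18 in replicate 1 and 5 in replicate 3. Within 500 bp, 0.571% of the genome, the counts were 32, 24 and 8. All 3 lists thus had more strong summits near tRNA genes than over the genome, with a gradient whose size differed between lists and with the cut.

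Percentiles of members as a group stood above the list medians by different amounts. The members' median percentile in the pooled list was 60.3 (quartiles 34.4 and 91.7), against 50 for all regions by construction. The replicate 1 median was 62.6 (29.8 and 85.3), and the replicate 3 median was 52.5 (25.1 and 79.0). Of 113 pooled members 33 were in the strongest 10%, or 29.2% (exact 95% interval 21.0 to 38.5), against 10% of all regions. In replicate 1 it was 43 of 243 members, or 17.7% (13.1 to 23.1), against 10%, and in replicate 3 it was 30 of 263, or 11.4% (7.83 to 15.9), against 10%. The replicate 3 share is thus near its background. Intervals here and below are Clopper-Pearson and cover counting error only, and regions of 1 list are not replicates of each other.

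Few members passed a q-value of 0.05 in the pooled list and in replicate 3. Of 113 pooled members 3 passed (2.65%, against 0.267% of all regions). In replicate 1 it was 43 of 243 (17.7%, against 10.1%), and in replicate 3 it was 2 of 263 (0.76%, against 0.08%). The 43 replicate 1 members are the same as those in its strongest 10%. The 2 cuts nearly coincide in that list, at 3021 and 2997 regions, so this count adds nothing to the one above. Read depth is unknown here, so the number of reads behind a region cannot be given.

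Distance to the gene body went with rank in every list. Pooled members inside a gene had a median percentile of 82.7 (21 members), and 9 of them, or 42.9%, were in the strongest 10%. The median was 73.0 at 1 to 100 bp (49 members), 42.2 at 100 to 200 bp (18), 52.2 at 200 to 300 bp (13) and 51.2 at 300 to 500 bp (12). Just beyond the 500-bp limit, at 500 to 1000 bp, it was 42.9 (46 regions), with 10.9% in the strongest 10%. The step thus fell near 100 bp in the pooled list. The place of a summit could differ between lists by about the width of a band. Beside F29C4.t1 the pooled summit lay 86 bp downstream and the replicate 1 summit 28 bp upstream. Beside R04A9.t1 both lay 147 bp upstream. In replicate 1 the median was 75.9 up to 100 bp from the gene or inside it (112 members) and 48.9 at 100 to 500 bp (131). In replicate 3 it was 62.9 up to 100 bp (104 members) and 46.6 at 100 to 500 bp (159). Up to 100 bp, 25.9% of replicate 1 members and 18.3% of replicate 3 members were in the strongest 10%. From 100 to 500 bp the shares were 10.7% and 6.92%, near or under the 10% of each list.

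**Figure D2:**
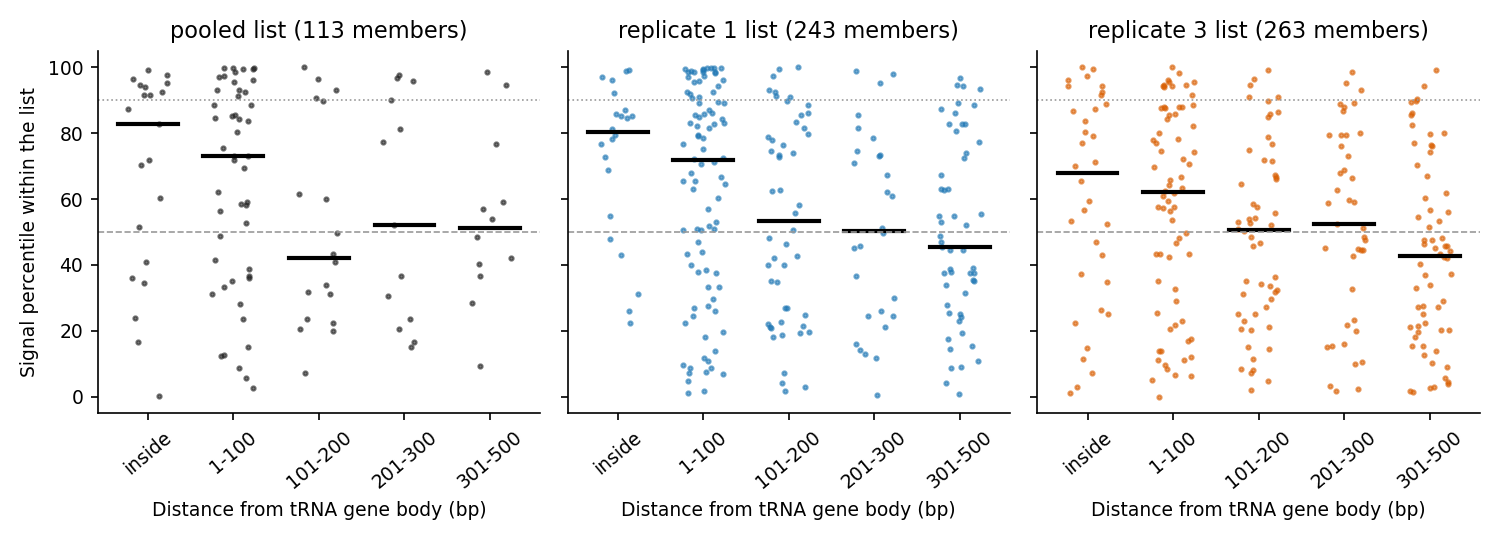
Signal percentile of each member within its list (y axis, 0 to 100) by distance of its summit from the tRNA gene body in bp (x axis), with 1 point per member and a black bar at each median. The dashed line is the list median and the dotted line the limit of the strongest 10%. Pooled medians were 82.7 inside the gene and 51.2 at 300 to 500 bp.

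Summits lay on both sides of the gene. Of the pooled members 54 had their summit upstream, 21 inside and 38 downstream. Within 100 bp, the pooled median was 72.5 upstream (28 members) and 75.4 downstream (21). In replicate 1 it was 65.6 upstream (49) and 76.7 downstream (41), and in replicate 3 it was 65.8 upstream (39) and 57.4 downstream (31). No side was ahead in both replicates. The upstream side holds the ground that TFIIIB occupies, and the downstream side holds the T run.

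Regions on either side of the 500-bp limit had percentiles from 28.5 to 89.3. The 3 members just inside lay 492 bp from ZK380.t1 (percentile 53.9), 492 bp from F52E10.t3 (28.5) and 487 bp from F09B9.t2 (59.2). The 3 regions just outside, which are not members, lay 509 bp from W06G6.t1 (65.3), 519 bp from F08F1.t1 (89.3) and 550 bp from F09B9.t1 (29.6).

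Chromosome X and the autosomes differed in the pooled list in the share of members in the strongest 10%. At that cut they differed much less in the replicate lists. In the pooled list 21 of 54 members on X were in the strongest 10% (38.9%, interval 25.9 to 53.1), against 12 of 59 on autosomes (20.3%, 10.98 to 32.8). Among all pooled regions the shares were 11.6% on X and 9.62% on autosomes. Median percentiles were 60.1 on X and 61.7 on autosomes. In replicate 1 the strongest 10% held 18.3% of 109 X members and 17.2% of 134 autosomal members, with medians of 55.5 on X and 63.0 on autosomes. In replicate 3 it held 13.1% of 107 X members and 10.3% of 156 autosomal members, with medians of 51.2 on X and 53.1 on autosomes. The difference in share, X minus autosomes, was thus 18.55 percentage points in the pooled list, 1.18 in replicate 1 and 2.83 in replicate 3. A cut at rank 1000 in each list was also counted. It held 20 of 54 X members and 12 of 59 autosomal ones in the pooled list. In replicate 1 it held 16 of 109 and 8 of 134, and in replicate 3 it held 4 of 107 and 4 of 156. Over all regions on X and on autosomes it held 228 of 2066 and 772 of 8423 in the pooled list. The counts were 209 of 5776 and 791 of 24194 in replicate 1, and 185 of 5375 and 815 of 24625 in replicate 3. The replicate 1 difference thus depended on the cut.

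Close to the gene the pooled contrast was wider still. Inside the body or within 100 bp, 17 of 36 pooled members on X were in the strongest 10% (47.2%), against 6 of 34 on autosomes (17.6%). In replicate 1 these shares were 24.1% on X (58 members) and 27.8% on autosomes (54). In replicate 3 they were 20.9% on X (43) and 16.4% on autosomes (61). At the cut of rank 1000 the counts were 12 of 58 on X and 6 of 54 on autosomes in replicate 1. In replicate 3 they were 3 of 43 and 2 of 61, and in the pooled list 17 of 36 and 6 of 34. The density of all pooled summits in this zone was 4.16 times the X average on X and 3.68 times the autosomal average on autosomes. Counted over all pooled regions, the crowding at autosomal tRNA genes was thus close in size to that on X.

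As a share of genes, 64 of 276 tRNA genes on X had a pooled region within 500 bp (23.2%, interval 18.3 to 28.6), against 62 of 336 on autosomes (18.5%, 14.4 to 23.0). Among autosomes the share went from 14.0% on chromosome II to 21.2% on chromosome I. In replicate 1 it was 43.5% on X and 38.7% on autosomes, and in replicate 3 it was 42.4% on X and 45.5% on autosomes. The direction differed between the replicates.

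A tRNA gene was called clustered when another tRNA gene lay within 2000 bp, which held for 271 of the 612. In the pooled list the median percentile was 74.4 beside clustered genes (32 members) and 58.4 beside single genes (81). With a cluster distance of 5000 bp the pooled difference turned round, from 15.9 percentile points to −1.90. Over all members, the replicate lists ran the other way at 2000 bp too. In replicate 1 the medians were 59.8 beside clustered genes (78) and 62.6 beside single ones (165), and in replicate 3 they were 47.6 beside clustered (96) and 54.3 beside single genes (167). Fewer clustered than single genes had a pooled region, at 48 of 271 (17.7%) against 78 of 341 (22.9%). In replicate 1 the shares were 37.3% of clustered and 43.7% of single genes, and in replicate 3 they were 44.6% of clustered and 43.7% of single genes. Clustered genes also made up 153 of the 276 tRNA genes on X, against 118 of the 336 on autosomes, so clustering and chromosome overlap. On X alone the replicate 1 median was 73.5 beside clustered genes and 49.8 beside single ones. On autosomes it was 47.0 beside clustered and 65.6 beside single genes, so the direction differed. In replicate 3 clustered genes had the lower median on both, at 45.6 against 56.5 on X and 49.7 against 54.0 on autosomes. In the pooled list they had the higher one on both, at 66.1 against 59.6 on X and 78.5 against 52.2 on autosomes.

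**Figure D3:**
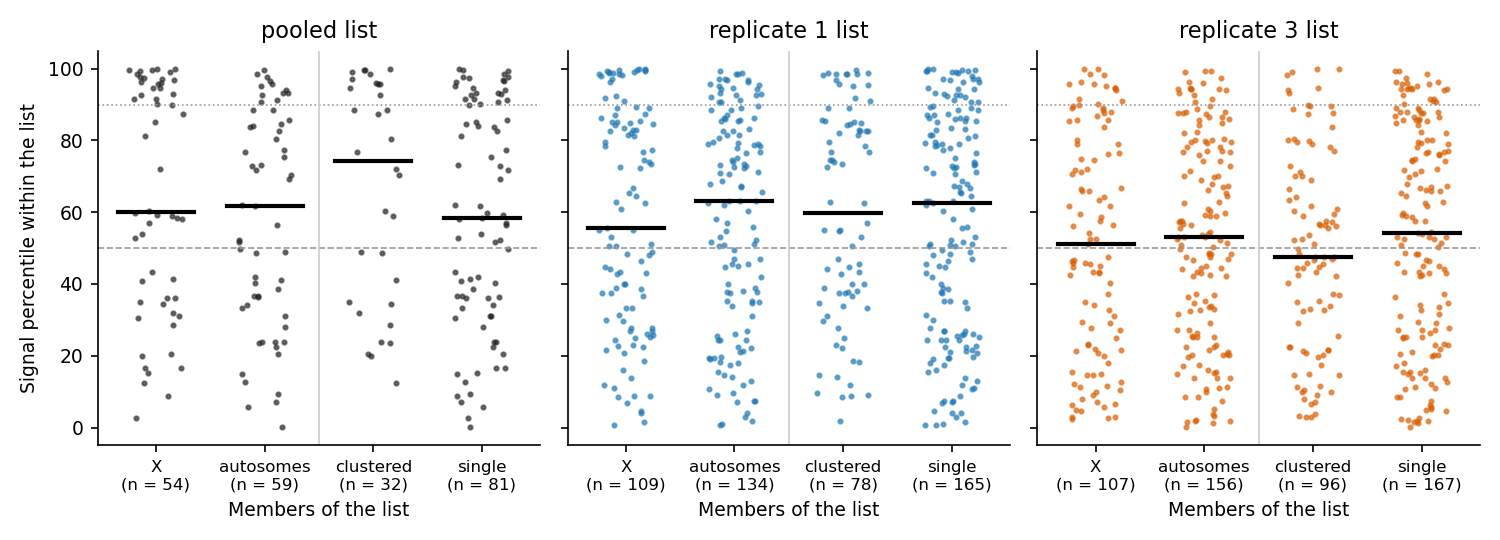
Signal percentile of each member within its list (y axis, 0 to 100), with members split into X and autosomes and, separately, into clustered and single genes (x axis), and a black bar at each median. The dashed line is the list median and the dotted line the limit of the strongest 10%. In the pooled list clustered members had a median of 74.4 and single ones 58.4, while both replicate lists had the lower median beside clustered genes.

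Many tRNA genes sit inside the introns of protein-coding genes. Of 284 such genes 60 had a pooled region (21.1%), against 65 of 321 intergenic ones (20.2%). Summits of pooled members lay in introns for 39, in exons for 21 and between genes for 53. Some members also lay near the start of a protein-coding gene. The 27 pooled members within 500 bp of a protein-coding transcript start had 33.3% in the strongest 10%, and the 86 farther from one had 27.9%. Among all pooled regions within 500 bp of such a start, 9.90% were in the strongest 10%.

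The authors' reproducible set held 45 regions, beside 10489 in the pooled list, and 4 of the 113 pooled members overlapped it. The lowest signal in the set was 30.7, and the 4 were the strongest 4 pooled members. Their overlap is thus not a result apart from their pooled rank. They are given with their values in each list. The summit beside R04A9.t1 (WBGene00023117), 147 bp upstream of the gene and inside an intron of ZK1193.2, had a signal of 44.7 and rank 8 in the pooled list. It had 38.8 and rank 2 in replicate 1, but 7.39 and rank 8803 in replicate 3. Replicate 3 thus gave this summit only a middling place, at percentile 70.7.

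The M02F4 summit, 53 bp upstream of M02F4.t2 (WBGene00023111), had a pooled signal of 38.3 (rank 13). It had 14.6 (rank 436) in replicate 1 and 21.6 (rank 7) in replicate 3, where the summit lay 54 bp upstream of M02F4.t1 (WBGene00023110). The spacer that holds it, printed above, is thus within reach of both genes, and a region of over 300 bp cannot be given to one of them.

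On chromosome IV, a summit 7 bp upstream of the arginine tRNA gene F08G5.t1 (WBGene00014313) had a pooled signal of 33.0 (rank 27). Its values were 14.8 (rank 408) in replicate 1 and 9.17 (rank 3812) in replicate 3. A summit 29 bp downstream of the valine tRNA gene R04D3.t2 (WBGene00014478) had a pooled signal of 32.8 (rank 30), with 20.6 (rank 72) in replicate 1 and 10.7 (rank 1618) in replicate 3. Of these 4 members, all were in the strongest 10% of replicate 1, while 2, at M02F4.t2 and R04D3.t2, were in that of replicate 3. R04D3.t2 is also the one of the 4 whose pooled q-value, 0.0508, missed 0.05.

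The next members of the pooled list rested on one replicate or on both to different degrees. C30E1.t1 (glycine) had rank 47 in the pooled list, 108 in replicate 1 and 4289 in replicate 3. C28G1.t1 (glutamate) had ranks of 67, 33 and 3660 in the same lists, the last from a summit within 500 bp of the gene but not matched to the pooled one. Both therefore stood far higher in replicate 1 than in replicate 3.

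H08J11.t3 (glutamine), with a summit inside its body in an intron of ajm-1, showed the opposite order. It had a pooled rank of 89 and a signal of 27.9, against rank 6141 (8.20) in replicate 1 and rank 11 (20.1) in replicate 3. Its body is the same 72-base sequence as that of R04A9.t1 printed above, so the strongest replicate 1 member and the second strongest replicate 3 member sat beside identical genes. The R04A9.t1 summit lay outside the repeated body, and that of H08J11.t3 lay within it. Of the 15 identical genes, 4 had a pooled region within 500 bp: R04A9.t1, F47E1.t1 (rank 9572) and the neighbours H08J11.t3 and H08J11.t4, which shared 1 region.

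C04A11.t1 (WBGene00000308), the leucine gene with a single copy, had a summit 4 bp upstream in the pooled list with a signal of 25.6 (rank 147). It had 15.8 (rank 276) in replicate 1 and 11.3 (rank 1139) in replicate 3, where the summit lay inside the gene. Here both replicates placed a region of their strongest 10% at a gene body found once among the annotated tRNA genes. F41D9.t3 (asparagine) was similar in rank, at 275 in the pooled list, 194 in replicate 1 and 1321 in replicate 3, with its summit 67 bp downstream in an exon of sulp-3.

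Further out, 3 of the 15 strongest pooled members lay over 200 bp from their gene and had uneven replicate support. K04C2.t2 (glycine, chromosome III) lay 391 bp from a summit in an exon of brd-1, with pooled rank 165 and replicate 3 rank 266, and no replicate 1 region within 500 bp of the gene. Y57A10C.t1 (methionine, chromosome II) lay 209 bp from a summit of pooled rank 235, with replicate 1 rank 340 and a matched replicate 3 rank of 9772. T14F9.t1 (aspartate), 280 bp away, had pooled rank 329 and replicate 1 rank 585, with no replicate 3 region within 500 bp of the gene.

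The last of the 15 were C42D8.t1 (isoleucine, pooled rank 252, summit inside the gene), F15G9.t1 (alanine, rank 306, summit 11 bp upstream in an intron of him-4) and F13G11.t1 (arginine, rank 360, 148 bp downstream). F15G9.t1 had rank 4589 in replicate 1 and 1800 in replicate 3. Of the 15 strongest pooled members, those on autosomes were beside F08G5.t1, K04C2.t2, Y57A10C.t1 and F13G11.t1, and the others were on X.

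Each replicate list also had strong members of its own. In replicate 1, C04E7.t1 (leucine, rank 191) and F17H10.t1 (glycine, rank 97) had a pooled region but no matched one in replicate 3. K07A1.t1 (serine, chromosome I, rank 208) and rte-1 (glutamate, rank 244, summit inside the gene) had a matched region in neither other list. In replicate 3, K06A4.t1, the alanine gene printed above, had rank 204 with a summit inside the gene in an intron of swt-5. Its pooled rank was 2952. A replicate 1 summit of rank 7031 lay 145 bp from the gene and over 200 bp from the replicate 3 summit. ZC455.t1 (serine) had rank 232 and B0395.t1 (serine) rank 419 in replicate 3. F49E7.t2 (arginine) followed at rank 541, T22A3.t1 (glycine) at 785 and Y66D12A.t1 (phenylalanine) at 1083. None of these 5 was in the strongest 10% of replicate 1 by a matched summit.

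A larger share of summits was matched between replicates near tRNA genes than over all regions, but most members of either list had no partner. Summits were matched when they lay within 200 bp of each other. Of the 243 replicate 1 members 72 had a replicate 3 summit nearby (29.6%, interval 24.0 to 35.8), against 21.7% of all replicate 1 regions. Of the 263 replicate 3 members 77 had a replicate 1 summit nearby (29.3%, 23.8 to 35.2), against 22.1% of all replicate 3 regions. Members inside the gene or within 100 bp were matched in 35.7% of cases from replicate 1 and 37.5% from replicate 3. Those at 100 to 500 bp were matched in 24.4% and 23.9%, close to each list's background. A match takes any summit of the other list, so its share also rises where summits are dense. Within 500 bp of a tRNA gene the density was 1.42 times that of the genome in replicate 1 and 1.54 times in replicate 3. The matched shares are therefore not a sign of replicate agreement apart from the crowding, whose part in them was not tested.

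Among strong members the match was more frequent. Of 43 replicate 1 members in the strongest 10% 19 were matched (44.2%, interval 29.1 to 60.1), against 30.5% of all replicate 1 regions in that 10%. Of 30 such replicate 3 members 14 were matched (46.7%, 28.3 to 65.7), against 27.9%. The signal values of matched summits followed each other weakly, with a Spearman's rho of 0.211 over 72 replicate 1 members, and 0.0665 over all 6489 matched nuclear regions. Points in each of these share their library, and the values are given as a description only. Just 4 matched pairs were in the strongest 10% of both replicates, beside M02F4.t2, C04A11.t1, F41D9.t3 and R04D3.t2, and all 4 were on X. That is 4 of 72 matched members (5.56%, interval 1.53 to 13.6), against 165 of all 6489 matched regions, or 2.54%. Of those 165 pairs 39 were on X (23.6%). Among the 72 matched members, strong or not, 35 were on X and 37 on autosomes.

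Counted by gene, 250 of 612 tRNA genes had a replicate 1 region within 500 bp (40.8%), 270 had a replicate 3 region (44.1%) and 122 had both (19.9%). For comparison, protein-coding genes had a region within 500 bp of a transcript start in 35.0% of cases in replicate 1, 32.9% in replicate 3 and 14.8% in both. For snoRNA genes the shares were 41.0% in replicate 1, 38.2% in replicate 3 and 19.1% in both, so the tRNA share was close to that of snoRNA genes in replicate 1 and in both. A pooled region was present for 126 (20.6%), and 211 genes had a region in no list. Of the 126 genes with a pooled region, 107 also had a replicate 1 region and 95 a replicate 3 region. Of the 486 genes without one, 143 had a replicate 1 region (29.4%) and 175 a replicate 3 region (36.0%). Over the 122 genes with a region in both, rho was 0.118.

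**Figure D4:**
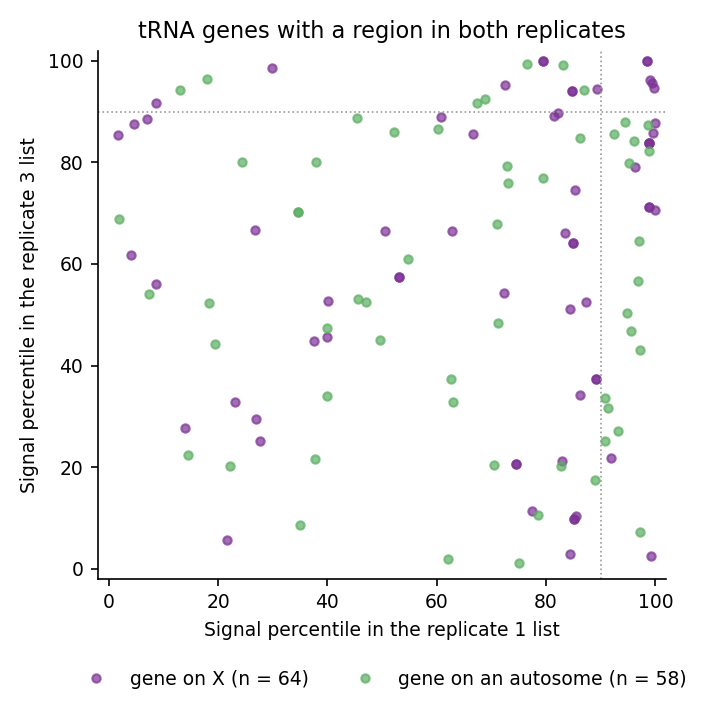
Signal percentile of the strongest region within 500 bp of each tRNA gene in the replicate 1 list (x axis) and the replicate 3 list (y axis), for the 122 genes with a region in both lists, with genes on X and on autosomes in different colours. Dotted lines mark the strongest 10% of each list. The 5 genes at the upper right lie beside 4 matched pairs of regions on X, and the points fill the rest of the plane.

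The B box word GTTCGANNC was searched on both strands within 200 bp of each summit. It was found at 61 of 113 pooled members (54.0%), against 3.73% of all pooled regions. Nearness to a tRNA gene fixes much of this count, since 441 of the 612 gene bodies (72.1%) hold the word. It was present at 72.9% of pooled members inside the gene or within 100 bp and at 23.3% of those farther away. Gene bodies lacked it by amino acid: 0% of aspartate and cysteine genes and 3.70% of glutamine genes held it, against 100% of isoleucine and tyrosine genes. R04A9.t1 and K06A4.t1 above carry the form GTTCAANNC, which was added after the gene sequences were seen. When this form was counted as well, 95.9% of gene bodies held one or the other. The 2 words together were found at 77 pooled members (68.1%), against 9.61% of all pooled regions. Genes with a pooled region held either word in 95.2% of cases, against 96.1% of the genes without one. The box is thus nearly universal among the genes, and its presence did not separate genes with a region from those without.

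A run of 4 T bases within 20 bp downstream followed all 126 genes with a pooled region, against 97.9% of the 486 without. Base composition moved with distance as well. Median GC content within 100 bases of the summit on either side was 47.0% for pooled members inside the gene or within 100 bp, 37.8% for members at 100 to 500 bp and 39.8% for all pooled regions. In the strongest 10% it was 47.3% for members and 42.3% for all regions. The part of base composition in the ranks was not tested.

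Pooled regions were spread over tRNA genes of nearly all amino acids. Glycine genes had one most often among the large groups, at 16 of 55 (29.1%, interval 17.6 to 42.9), followed by lysine genes at 13 of 46 (28.3%, 16.0 to 43.5). The lowest shares were those of histidine at 1 of 20, threonine at 3 of 34 (8.82%, 1.86 to 23.7) and proline at 4 of 42 (9.52%, 2.66 to 22.6). These shares did not all keep their order in the replicate lists. Threonine genes had a replicate 1 region in 47.1% and a replicate 3 region in 44.1% of cases, close to the 40.8% and 44.1% over all tRNA genes. Of the 20 histidine genes, 4 had a replicate 1 region (20%) and 5 a replicate 3 region (25%). Among amino acids with at least 10 genes, histidine thus stayed lowest in both lists, level with asparagine in replicate 1.

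**Figure D5:**
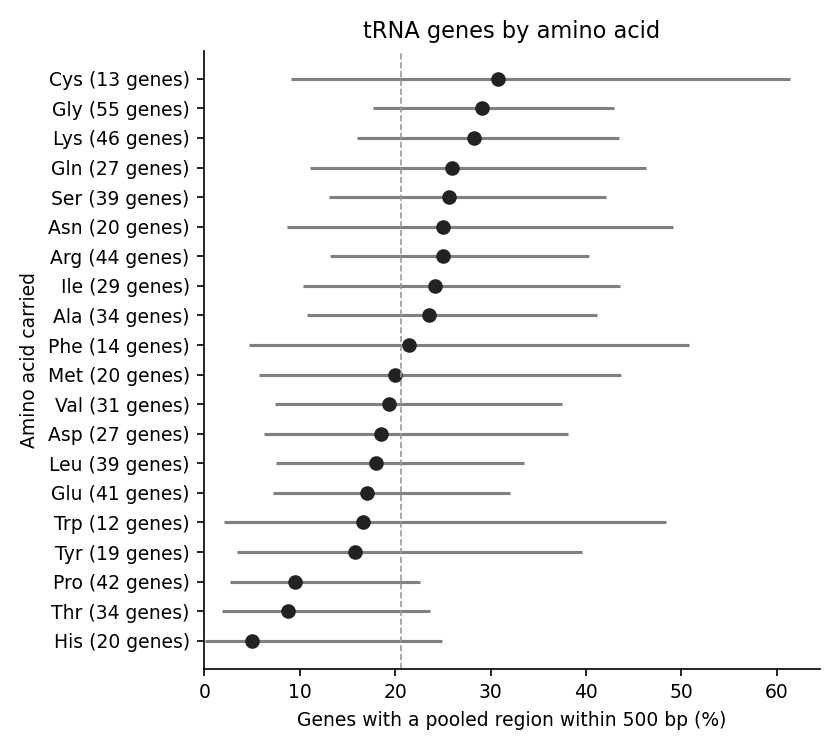
Share of tRNA genes with a pooled region within 500 bp, in percent (x axis), by the amino acid the tRNA carries (y axis, amino acids with at least 10 genes), with exact 95% intervals as lines and the share over all 612 genes (20.6%) as the dashed line. The interval of every amino acid shown holds the dashed line, and the points range from 1 of 20 genes for histidine to 30.8% for cysteine.

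Other classes of short non-coding genes had a crowding of their own. In the pooled list the summit density within 100 bp of the gene, against the genome, was 4.06 for tRNA genes, 3.22 for snoRNA genes, 2.51 for miRNA genes and 2.34 for snRNA genes. In replicate 1 these ratios were 2.27 for tRNA, 1.99 for snoRNA, 1.52 for miRNA and 1.23 for snRNA genes. In replicate 3 they were 2.11 for tRNA, 1.44 for snoRNA, 1.89 for miRNA and 1.31 for snRNA genes. tRNA genes came first in each list, yet in the strongest 10% the order changed. There the pooled ratio was 13.3 for tRNA genes (23 summits) and 14.0 for snRNA genes (6 summits), and in replicate 1 it was 5.89 for tRNA and 7.22 for snoRNA genes. In replicate 3 it was 3.85 for tRNA and 4.61 for miRNA genes. tRNA genes thus led in no list when the strongest 10% alone was counted. By share of genes with a region within 500 bp, tRNA genes had 20.6% and snoRNA genes 23.4% in the pooled list. The regions beside them had pooled median percentiles of 61.9 for tRNA, 53.2 for snoRNA, 44.5 for miRNA and 81.2 for snRNA genes, with each gene's strongest region taken. These differences between classes were not tested.

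Genes that serve tRNAs were looked up as well. RNase P, whose RNA subunit is rpr-1, trims the 5′ end of precursor tRNAs. A region within 500 bp of rpr-1 on chromosome I had rank 48 in the pooled list (signal 30.4), rank 53 in replicate 1 and rank 1863 in replicate 3. The RNA of the related RNase MRP, mrpr-1, had a region in replicate 1 only (rank 8876). The 16 genes for 5S ribosomal RNA, which RNA polymerase III also transcribes, had no pooled region, and 1 of them had a weak one in replicate 1. Among protein-coding genes, a pooled region lay within 500 bp of 3 of 32 aminoacyl-tRNA synthetase genes, ears-2, aars-2 and nars-1, and of 1 of 17 genes for RNA polymerase III and its factors, snpc-3.4. The gene sbp-1 was on the second list and was taken off after its values were seen, since its product is not a factor of that polymerase. These shares, 9.38% and 5.88%, compare with 13.8% of all 19973 protein-coding genes, measured at their transcript starts. None of these 4 regions was in the strongest 10% of the pooled list. In replicate 1 synthetase genes had a region in 40.6% of cases and the polymerase III genes in 29.4%, against 35.0% of all protein-coding genes. In replicate 3 it was 31.2% of synthetase genes and 11.8% of polymerase III genes, against 32.9% of all protein-coding genes. In that list ears-2 (rank 551) and nars-1 (rank 1012) were in the strongest 10%.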

How the data were processed

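The ce11 region lists of replicates 1 and 3, the pooled list and the reproducible set were used as deposited. Per the files' deposited descriptions, regions were called by the authors in each replicate and in pooled reads against a control, and they derived the reproducible set from them. No source used here states the aligner, the caller or its scaling. Column 7 is the caller's signal in the authors' deposited lists, without a stated unit, and served only for ranks within a list. Column 9 of the deposited lists is a −log10 q-value, and column 10 the summit's offset from the start. Coordinates are 1-based on ce11. Read depth is unknown.

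Distances were measured from the summit to the gene body, with genes of Ensembl release 115 and names, amino acids and sequences of RefSeq on the same assembly. Percentiles were taken among nuclear regions, 30 mitochondrial regions of replicate 1 left out. Because the design has 1 group, no test was run. Functions were tested on simulated summits. Genes named are those nearest to the 15 strongest pooled members, the 10 strongest of each replicate, members of the reproducible set, matched pairs strong in both replicates, and members at the 500-bp limit. Others are named where a count was 5 or fewer or after their values were seen. Members and gene lists were chosen with earlier results of these data known. Python 3.11.15 with pandas 2.3.3 and scipy 1.17.1 was used. Labels do not say whether replicates came from separate cultures. U6 snRNA genes were listed but had no match by name.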

Additional observations from a re-analysis of the deposited data

Results flagged for a closer look

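The replicate 1 list held 30 regions on the mitochondrial chromosome, outside the nuclear regions compared here. Of these, 21 had a summit within 500 bp of one of the 22 mitochondrial tRNA genes, and 3 had it inside one. Their list's mitochondrial signal values went from 7.43 to 80.1, with a median of 25.5. The replicate 3 list and the pooled list had no mitochondrial region. The 21 regions were picked out as a signal that no comparison of the study's nuclear regions uses. The mitochondrial genome is small and dense in tRNA genes, so nearness to one carries little information there. Why one replicate had such regions was not tested.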

How the results depend on the processing

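Of 60 alternatives over 14 values, 21 left the value within its spread between replicates or, for counts, within 1.5 times, 34 moved it further and 5 reversed it. With either replicate left out, in the list of the other, members numbered 243 to 263 and genes with a region 250 to 270. In those lists the share in the strongest 10% was 11.4% to 17.7%, the median percentile 52.5 to 62.6, the share with q under 0.05 0.76% to 17.7%, and the B box share 41.1% to 46.9%. Within 100 bp the density ratio was 2.11 to 2.27, and 3.85 to 5.89 in the strongest 10%. The X minus autosome difference was −7.58 to −1.90 in median percentile and 1.18 to 2.83 points in share in the strongest 10%, clustered minus single −6.74 to −2.82, and within 100 bp minus beyond 300 bp 20.1 to 30.4. With members up to 200 bp, the median percentile was 69.8, X minus autosomes 2.62, clustered minus single 9.87, genes with both replicates 65 and the B box share 68.2%. With members up to 1000 bp, the share in the strongest 10% was 23.9%, X minus autosomes 6.25, genes with both replicates 226 and the B box share 39.6%. Clustered minus single was 11.9 with a cluster distance of 1000 bp and −1.90 with 5000 bp. The strongest 5% held 17.7% of pooled members. Matched shares were 21.8% with summits within 100 bp and 46.9% within 500 bp. A B box window of 100 bp gave 30.1%. With alternatives chosen after seeing the data, the share in the strongest 10% was 19.0% at genes without an identical copy and 20.3% on autosomes. At genes without an identical copy the density ratio was 2.90, and 7.25 in the strongest 10%, which rests on few regions. The causes were not tested. No paired analysis was possible because there is 1 group. Unknown read depth, 2 samples and weak regions in long replicate lists limit all values, and reads from identical genes may not be placed to one gene.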

Other observations

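RefSeq also annotates 209 tRNA pseudogenes, copies that resemble tRNA genes but are not counted among the 612. A pooled region lay within 500 bp of 126 of the 612 tRNA genes (20.6%), against 19 of the 209 pseudogenes (9.09%). In replicate 1 it was 40.8% of genes against 26.8% of pseudogenes, and in replicate 3 it was 44.1% of genes against 32.1% of pseudogenes. With each gene's strongest region taken, 30.6% of the 108 pooled regions beside genes were in the strongest 10% of the list, against 3 of the 17 beside pseudogenes (17.6%). The median percentile of these pooled regions was 61.9 beside genes and 70.9 beside pseudogenes. It was 67.1 beside genes and 41.2 beside pseudogenes in replicate 1, and 54.4 beside genes and 57.1 beside pseudogenes in replicate 3. None of the 19 pseudogenes with a pooled region lay within 1000 bp of a tRNA gene.

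Identical genes did not share one value. The largest family of identical bodies, 29 glycine genes of which 11 are on X, had a pooled region beside 7. In replicate 1 it was also 7, and in replicate 3 it was 19. Among 25 identical lysine genes 8 had a pooled region, and among 24 identical proline genes 1 did, beside ZK899.t1. Genes whose sequence occurs once had a pooled region in 28 of 143 cases (19.6%). The share was 28.4% with 2 to 4 copies, 15.3% with 5 to 9 and 20.8% with 10 or more. A pooled region in the strongest 10% lay beside 3.50% of the genes whose sequence occurs once, 8.96% of those with 2 to 4 copies, 8.24% with 5 to 9 and 6.94% with 10 or more. How multiply matching reads were handled cannot be seen in the lists.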
